A study of Mus musculus with 41 samples.

Results

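Gene expression was compared at day 11 of neural differentiation between mouse cells given guides against Nr6a1 and cells given a non-targeting guide (NT). The comparison holds 2 Nr6a1 libraries (replicates 1 and 3) and 3 NT libraries, out of 41 libraries in the series, and all 15204 of 24410 gene symbols that passed a filter on low counts; 9206 symbols were not tested. Every cell came from R1-iCas9 embryonic stem cells, in which doxycycline switches on Cas9, so Cas9 induction and transfection were shared by both groups. For Nr6a1, 5 synthetic guides were pooled, and the cells were not cloned, so a library labelled as a knockout (KO) can hold edited and unedited cells, and editing was not measured in the files used here. Differentiation used basal N2B27 medium with bFGF, a pulse of the Wnt pathway activator CHIR99021, then retinoic acid with the Smoothened agonist SAG, and later SAG alone, a course that directs cells to ventral spinal cord progenitors. Libraries with guides against Eed, Ezh2 or Brd8 at day 11 (3 each) and the Nr6a1 (2 each) and NT (3 each) libraries of days 7 and 9 are used below for comparison. Whether the numbered replicates are separate cultures is not stated, so p-values measure only the spread between libraries, which may be technical.

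Nr6a1, also known as germ cell nuclear factor, is an orphan nuclear receptor with no known ligand. It binds as a dimer to a direct repeat of the hexamer AGGTCA with no spacer, and it is known in mouse for silencing the pluripotency gene Pou5f1 as stem cells differentiate and for setting the extent of the trunk through Hox genes. In the ventral spinal cord, progenitors that carry Olig2 first give motor neurons and later oligodendrocyte precursors, while the neighbouring domain that carries Nkx2-2 gives the excitatory V3 interneurons marked by Sim1. Oligodendrocyte maturation is known for the regulator Myrf and for the myelin genes Mbp, Cnp and Mag. In bulk libraries, fewer cells of a type and less RNA per cell cannot be told apart.

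The Nr6a1 libraries were deeper, with 21453421 and 24492548 estimated counts against 12392709, 10468941 and 9541162 in NT replicates 1, 2 and 3. A count of 3, the limit that a count of 0 allows (counting error only), was worth 0.116 to 0.134 CPM (counts scaled to library size by TMM) in the Nr6a1 libraries and 0.232 to 0.302 CPM in the NT libraries. NT replicate 3 stood apart: its highest correlation of log2 CPM with an NT library was 0.939, against 0.961 for NT replicates 1 and 2 and 0.98 between the Nr6a1 libraries. Each NT library correlated more with Nr6a1 replicate 3 (0.973, 0.969 and 0.945 for NT replicates 1, 2 and 3) than with any other NT library. NT replicate 1 was also closer to Nr6a1 replicate 1 (0.968) than to the other NT libraries. Of genes averaging more than 50 counts in the series, 7 to 11 were at 0 in the Nr6a1 libraries, 17 to 19 in NT replicates 1 and 2, and 82 in NT replicate 3. Markers of neural progenitors (6 of 6 tested, summed level 1020 to 1030 CPM in Nr6a1 cells and 1100 to 1190 CPM in NT cells) and of neurons (4 of 4, 2970 to 3110 and 3090 to 3280 CPM) were abundant in both groups, as the label of neural progenitors has it, with neurons beside them. Motor neuron markers (4 of 4) summed to 27.4 to 57.1 CPM in Nr6a1 cells and 57.2 to 84.1 CPM in NT cells. The sums of 4 markers each for pluripotent cells (22.2 to 38.6 against 16.3 to 21.6 CPM), mesoderm (461 to 619 against 293 to 403 CPM, nearly all from the collagens Col1a1 and Col3a1) and epithelium (19.5 to 27.6 against 9.68 to 14.9 CPM), and of the 2 tested markers of endothelium and blood (13.2 to 15.2 against 7.12 to 12.3 CPM), were higher in the Nr6a1 libraries without any member being called. The mesodermal regulators Meox1 and Tcf15 were at most 1.48 CPM in any of these libraries.

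The Nr6a1 transcript itself was not called. Nr6a1 (chromosome 2, 38723370 to 38927688 on GRCm38, minus strand) had 29.9 and 28.4 CPM in Nr6a1 cells, against 34.8, 27.5 and 44.1 CPM in NT cells. The groups overlapped, since NT replicate 2 lay below both Nr6a1 libraries. The log2 fold change was -0.28 ± 0.137 (SE; edgeR adjusted p = 0.603), and it lay between -0.43 and -0.11 under the alternatives, with none past the threshold. A Cas9 cut can disrupt the protein without lowering the transcript, so this level does not check the labels. Within 500 kb of Nr6a1, GENCODE M21 annotates 45 other genes, of which 12 were tested and 0 were called (log2 fold changes of -0.73 to 0.26, lowest adjusted p 0.763). The nearest tested neighbours, Olfml2a and the nuclear receptor gene Nr5a1, averaged 1.35 and 0.510 CPM in Nr6a1 cells, against 2.03 and 0.446 CPM in NT cells. None of the genes annotated as overlapping Nr6a1, among them Nr6a1os, Mir181a-2 and Mir181b-2, was tested.

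Across all genes, 12 (0.0789%) passed an adjusted p of 0.05 in edgeR's quasi-likelihood test, 8 higher (0.0526% of tested genes) and 4 lower (0.0263%) in Nr6a1 cells. Of the higher genes 3 are in the oligodendrocyte lineage list (Mbp, Myrf and Cnp); of the lower genes, Isl2 is in the motor neuron list and Sim1 in those of spinal interneurons and ventral progenitors, while Arhgap36 and Slc10a4 are in none. At an unadjusted p under 0.05 there were 1243 genes (8.18%), 809 higher (5.32%) and 434 lower (2.85%), and the libraries of the groups did not overlap for 3170 genes (20.8%). The median log2 fold change of all tested genes was 0.03. With DESeq2 size factors the split was 8 higher and 7 lower, and without the ribosomal RNA gene Rn45s in the library size it was 8 and 6. Leaving out Nr6a1 replicate 1 left 0 called genes (660 at an unadjusted p under 0.05), and leaving out NT replicate 3 left 3, of which 2 were among the 12 (Mbp and Slc4a4). For 9 of the 12 genes replicate 1 lay farther from the NT mean than replicate 3, against 56.4% of all tested genes.

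**Figure D1:**
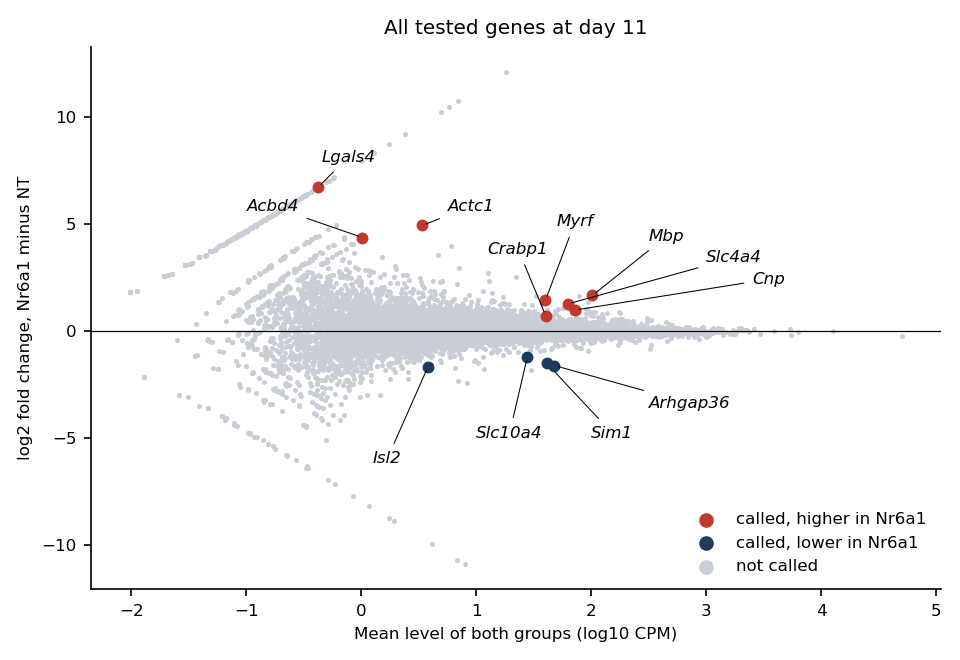
Log2 fold change of each tested gene (Nr6a1 minus NT at day 11, vertical axis) against its mean level in both groups (log10 CPM, horizontal axis). The 8 called higher genes (red) and 4 called lower genes (blue) are named, grey points were not called, and the diagonal arms are genes with no count in 1 of the groups.

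Since Nr6a1 binds AGGTCA, the 250 bases before the annotated starts of the called genes were searched for it on both strands, in RefSeq promoters on GRCm38.p6. Of the 12 genes, 9 had an entry, with 11 promoters in all. Mbp, Myrf and Acbd4 had none and were not searched. None of the 11 promoters held 2 copies of AGGTCA in direct repeat without a spacer. That repeat occurred in 2 of all 32851 promoters and in 0 of the 14473 promoters of tested genes. The extended single site TCAAGGTCA was also in none of the 11 (0.387% of all promoters, 0.263% of those of tested genes). At least 1 copy of AGGTCA stood in 2 of the 11 (18.2%), against 1545 of the 14473 promoters of tested genes (10.7%). Those 2 promoters are shown because they are the only ones of the set with the hexamer; capitals mark it, as AGGTCA or, on the other strand, TGACCT. A match here is a description of letters, not a bound site.
Arhgap36 promoter, chrX:49463695-49463944, plus strand: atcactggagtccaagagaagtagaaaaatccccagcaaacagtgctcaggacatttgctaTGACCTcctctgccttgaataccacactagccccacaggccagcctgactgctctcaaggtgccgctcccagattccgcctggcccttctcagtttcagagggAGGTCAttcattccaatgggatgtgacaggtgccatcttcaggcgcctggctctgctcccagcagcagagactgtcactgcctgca
Slc4a4 second promoter, chr5:89027716-89027965, plus strand: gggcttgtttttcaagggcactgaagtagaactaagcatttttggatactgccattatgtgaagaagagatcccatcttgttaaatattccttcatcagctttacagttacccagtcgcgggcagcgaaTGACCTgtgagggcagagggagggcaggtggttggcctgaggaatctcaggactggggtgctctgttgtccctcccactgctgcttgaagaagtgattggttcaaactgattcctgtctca
In Arhgap36, which fell, the sites began 189 and 86 bases before the start, and in Slc4a4, which rose, the site began 121 bases before a start inside the gene.

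In Nr6a1 cells 3 genes of oligodendrocyte maturation rose. Mbp (chromosome 18, 82475146 to 82585637), which encodes myelin basic protein, had 217 and 94.9 CPM in Nr6a1 cells, against 51.2, 46.0 and 51.0 CPM in NT cells. Both Nr6a1 libraries lay above every NT library, and replicate 1 stood more than 2 times as high as replicate 3. Mbp rose by 1.66 ± 0.209 on the log2 scale (3.15-fold; adjusted p = 2.29e-05). Myrf (chromosome 19, 10208272 to 10240748), the transcription factor that switches on myelin genes, had 74.5 and 42.2 CPM in Nr6a1 cells and 22.9, 25.5 and 16.5 CPM in NT cells. Again the groups did not overlap and replicate 1 was the higher, and the rise was 1.43 ± 0.300 (adjusted p = 0.0457). Cnp (chromosome 11, 100574904 to 100591729), an enzyme of non-compact myelin, had 120 and 72.3 CPM in Nr6a1 cells against 54.1, 57.0 and 36.2 CPM in NT cells, a rise of 0.97 ± 0.207 without overlap (adjusted p = 0.0457). Cnp overlaps Dnajc7 on the opposite strand, and whether counting used strand is not given in the sources used here.

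Of the 18 tested members of the oligodendrocyte lineage list (19 listed, Mog not tested), 3 were called higher and 0 lower. The median of the 18 was 0.98, against 0.03 over all tested genes, and 14 members were higher without overlap (77.8%, against 13.2% of all tested genes). Summed over the list, the level was 1580 and 982 CPM in Nr6a1 cells, against 778, 870 and 653 CPM in NT cells. Replicate 1 was the higher Nr6a1 library for most of it: it lay farther from the NT mean in 17 of the 18 members. Enpp6, an enzyme of newly forming oligodendrocytes, had 16.6 and 5.96 CPM in Nr6a1 cells, against 0.465, 1.67 and 0 CPM in NT cells (adjusted p = 0.326), and Mag, a myelin adhesion protein, had 12.5 and 4.49 CPM against 1.24, 0.928 and 0 CPM (adjusted p = 0.463). In both genes replicate 1 was far the higher, and no NT library passed 1.67 CPM. Pdgfra, the growth factor receptor of oligodendrocyte precursors, had 130 and 103 CPM in Nr6a1 cells and 67.1, 75.04 and 51.0 CPM in NT cells (adjusted p = 0.495). Sox10, which marks the whole lineage and neural crest, had 121 and 94.6 CPM against 107, 108 and 81.4 CPM, with overlap (log2 0.12). Nkx2-2 was the 1 member with a negative value (log2 -0.42, adjusted p = 0.731). Without Nr6a1 replicate 1 no list member was called and the list median was 0.69; Mbp was then at 0.94 (adjusted p = 0.185), Myrf at 0.96 and Cnp at 0.56 (both adjusted p = 1). Without NT replicate 3 Mbp was called, while Myrf and Cnp were not (adjusted p = 0.238 and 0.316), and Myrf was not called without NT replicate 1 (1.47, adjusted p = 0.0592). After the Nr6a1 libraries were thinned to the mean NT depth, Mbp was called and Myrf and Cnp were not (both adjusted p = 0.057), and likewise with only the groups compared (Mbp 0.047, Myrf 0.0697 and Cnp 0.263).

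**Figure D2:**
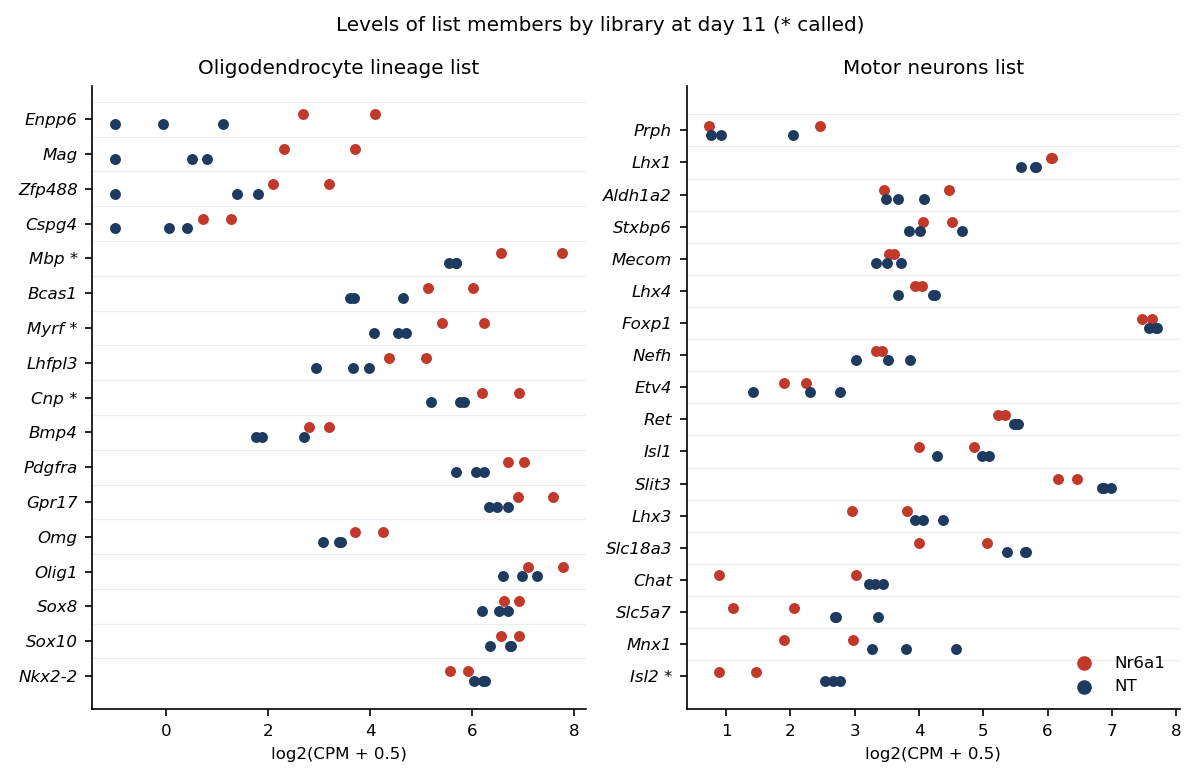
Level of 17 tested members of the oligodendrocyte lineage list and all 18 of the motor neuron list in each library at day 11 (log2(CPM + 0.5), horizontal axis), Nr6a1 libraries in red above NT libraries in blue, with an asterisk for called genes. Of the 17 oligodendrocyte members drawn, 13 have both red points to the right of all blue points; of the 18 motor neuron members, 8 have both to the left.

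Slc4a4 (chromosome 5, 88886818 to 89239653), a sodium bicarbonate cotransporter of astrocytes and other glia, had 109 and 67.5 CPM in Nr6a1 cells, against 33.3, 37.2 and 40.3 CPM in NT cells. The groups did not overlap, and Slc4a4 rose by 1.25 ± 0.184 (2.38-fold; adjusted p = 0.000352). It was called in 11 of 12 alternatives, and the exception was the fit without Nr6a1 replicate 1 (0.87, adjusted p = 0.308). Of the list of gliogenesis and late progenitors, 0 of 25 tested members were called by edgeR and 1 by DESeq2. At an unadjusted p under 0.05, 7 were higher, as were 5.32% of all tested genes. The median of the 25 was 0.29, and 10 members were higher (40.0%, against 13.2% of all tested genes) and 3 lower (12%, against 7.62%) without overlap. Nfix, a nuclear factor I gene of late progenitors and glia, had 273 and 179 CPM in Nr6a1 cells and 116, 136 and 119 CPM in NT cells (log2 0.87, adjusted p = 0.0604). Bcan, the proteoglycan brevican, had 143 and 91.9 CPM against 35, 48.1 and 32.1 CPM (adjusted p = 0.135). Of the 4 markers of glial progenitors, the glutamate transporter gene Slc1a3 was higher without overlap (log2 0.57, adjusted p = 0.157). It had 220 and 207 CPM in Nr6a1 cells against 135, 159 and 138 CPM in NT cells. Fabp7 (log2 0.00), Nfia (0.06) and Sox9 (-0.11) had fold changes near 0. Sox9 was lower without overlap (386 and 373 CPM in Nr6a1 cells, 422, 399 and 410 CPM in NT cells). Fabp7 was at 405 and 388 CPM in Nr6a1 cells, against 408, 400 and 379 CPM in NT cells.

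The genes that fell were Isl2, Sim1, Arhgap36 and Slc10a4. Isl2 (chromosome 9, 55538672 to 55546180), a LIM homeobox gene of motor neurons, had 1.34 and 2.24 CPM in Nr6a1 cells, against 5.81, 5.29 and 6.34 CPM in NT cells. Both Nr6a1 libraries were far under every NT library, and Isl2 fell by 1.68 on the log2 scale (-1.68 ± 0.306, adjusted p = 0.0116). Sim1 (chromosome 10, 50894754 to 50989152), the transcription factor of V3 interneurons, had 19.3 and 23.1 CPM in Nr6a1 cells and 51.3, 61.8 and 69.1 CPM in NT cells. Here the Nr6a1 libraries lay close to each other and far under the NT libraries (-1.52 ± 0.287, adjusted p = 0.0139). Arhgap36 (chromosome X, 49463945 to 49500244), an antagonist of protein kinase A that activates Gli factors and is expressed in motor neurons, had 11.3 and 35.4 CPM in Nr6a1 cells, against 75.7, 58.4 and 83.0 CPM in NT cells (-1.62 ± 0.303, adjusted p = 0.0137). Slc10a4 (chromosome 5, 73006883 to 73012955), a vesicular transporter-like protein of cholinergic and monoaminergic neurons, had 9.04 and 24.3 CPM in Nr6a1 cells and 35.2, 42.9 and 38.8 CPM in NT cells (-1.22 ± 0.252, adjusted p = 0.0457). For both of these, the groups did not overlap and replicate 1 was the lower Nr6a1 library by more than 2 times. Each of the 4 calls was lost without Nr6a1 replicate 1 (Isl2 -1.37, Sim1 -1.39, Arhgap36 -1.03, Slc10a4 -0.68; lowest adjusted p 0.561) and without NT replicate 3 (Isl2 -1.62, Sim1 -1.42, Arhgap36 -1.52, Slc10a4 -1.22; lowest adjusted p 0.0723). Slc10a4 was also not called without NT replicate 2 (-1.14, adjusted p = 0.0658). With only the groups compared Sim1 was called and Isl2, Arhgap36 and Slc10a4 were not (adjusted p = 0.575, 0.215 and 0.375), and after thinning Isl2 (-1.34, adjusted p = 0.088) and Slc10a4 (adjusted p = 0.057) were not.

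Of the 18 motor neuron genes, edgeR called 1 lower (Isl2) and 0 higher, and DESeq2 called 2 lower (Isl2 and Slc5a7), with a median of -0.21; 8 members were lower without overlap (44.4%, against 7.62% of all tested genes). The genes of acetylcholine handling were among them. Slc18a3, the vesicular acetylcholine transporter, had 15.6 and 32.7 CPM in Nr6a1 cells, against 49.6, 40.8 and 50.4 CPM in NT cells (adjusted p = 0.118). Slc5a7, the choline transporter, had 1.66 and 3.64 CPM against 6.04, 5.94 and 9.76 CPM (edgeR adjusted p = 0.149, DESeq2 adjusted p = 0.0485), and Chat, which makes acetylcholine, had 1.34 and 7.62 CPM against 8.83, 10.3 and 9.46 CPM (adjusted p = 0.484). Mnx1, a motor neuron homeobox gene, had 3.22 and 7.31 CPM in Nr6a1 cells and 9.14, 13.4 and 23.4 CPM in NT cells (adjusted p = 0.129). In each of these genes replicate 1 was the lowest library. Isl1 and Foxp1 overlapped between the groups (log2 -0.34 and -0.11), and Lhx1, shared with dorsal and intermediate interneurons, was the 1 member higher without overlap (log2 0.32, adjusted p = 0.481). Of the pan-neuronal genes, the tubulin gene Tubb3 had 717 and 825 CPM in Nr6a1 cells, against 884, 924 and 841 CPM in NT cells (log2 -0.20, adjusted p = 0.597), lower without overlap, while Dcx, a protein of young neurons, overlapped (log2 -0.02). Of the 32 genes of neurogenesis, 0 were called by edgeR and 1 lower by DESeq2, and the median was -0.09. At an unadjusted p under 0.05, 1 was higher and 7 lower, against 5.32% and 2.85% of all tested genes.

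By edgeR, Sim1 was the 1 called member among 27 spinal interneuron genes and among 15 genes of ventral progenitors and Shh response, and it belongs to both lists; DESeq2 also called Gad2 higher. Of the 27 interneuron genes, 10 were higher (37.0%, against 13.2% of all tested genes) and 2 lower (7.41%, against 7.62%) without overlap, and the median was 0.34. Gad2, which makes the transmitter GABA, had 35.01 and 31.3 CPM in Nr6a1 cells, against 19.7, 19.7 and 14.7 CPM in NT cells (log2 0.88, edgeR adjusted p = 0.0735; DESeq2 adjusted p = 0.0238). Pax2, a homeobox gene of inhibitory interneurons, had 57.3 and 50.8 CPM against 27.7, 28.5 and 34.6 CPM (log2 0.84, adjusted p = 0.128). The ventral progenitor genes had a median of -0.21, with 1 of 15 higher (6.67%, against 13.2% of all tested genes) and 5 lower (33.3%, against 7.62%) without overlap. Olig2, of the motor neuron and oligodendrocyte domain, had 326 and 266 CPM in Nr6a1 cells and 256, 268 and 223 CPM in NT cells, with overlap. Among 21 neural progenitor genes 0 were called by edgeR, while DESeq2 called 1 higher and 2 lower. At an unadjusted p under 0.05, 1 was higher and 4 lower, against 5.32% and 2.85% of all tested genes. Pax6, a homeobox gene of the intermediate progenitor domains, had 31.9 and 33.2 CPM in Nr6a1 cells against 16.3, 13.9 and 19.2 CPM in NT cells (log2 0.99, adjusted p = 0.0604). Nes, the intermediate filament nestin, had 343 and 429 CPM in Nr6a1 cells and 538, 519 and 544 CPM in NT cells (log2 -0.47, adjusted p = 0.0975). In both Pax6 and Nes the groups were well separated although neither passed.

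The 4 remaining higher genes were of other kinds. Crabp1 (chromosome 9, 54764748 to 54773110), a cellular retinoic acid binding protein, had 48.0 and 51.8 CPM in Nr6a1 cells, against 31.3, 37.2 and 23.2 CPM in NT cells (0.70 ± 0.149, adjusted p = 0.0457). It was the 1 called gene of 19 in retinoic acid metabolism and response, whose median was -0.22. Actc1 (chromosome 2, 114047282 to 114053548), cardiac muscle actin, a gene that overlaps A530058N18Rik on the opposite strand, had 3.72 and 9.40 CPM in Nr6a1 cells and 0, 0.649 and 0 CPM in NT cells (4.92 ± 1.04, adjusted p = 0.0457). Of 19 muscle genes it was the 1 called, and the list's median was 1.82. That median was 1.39 with low counts bounded: genes at 0 in 1 group at their bound, and genes with at most 3 counts in each group at 0. Without overlap, 8 were higher (42.1%, against 13.2% of all tested genes). Among them Tnni1, a troponin, had 58 counts in Nr6a1 cells against 0 in NT cells, and the myosin light chain genes Myl4 and Myl1 had 78 against 3 and 65 against 2 counts, with none of the 3 called (adjusted p = 0.196, 0.172 and 0.171). The regulators that define skeletal muscle were low: Myod1, Myf5 and Myf6 were at or under 0.155 CPM in every library, and Myog was at 0.313 and 0.348 CPM in Nr6a1 cells and 0, 0.371 and 0 CPM in NT cells. The part of muscle cells in these values was not tested. Acbd4 (chromosome 11, 103101682 to 103112200), an acyl-CoA binding protein, had 2.42 and 1.51 CPM in Nr6a1 cells, against 0.155, 0.0928 and 0 CPM in NT cells. Those are 93 counts against 3, a ratio of rates of 21.6 (exact binomial 95% bounds 7.16 and 107, for counting error alone; edgeR adjusted p = 0.0042). Lgals4 (chromosome 7, 28833854 to 28841708), the lectin galectin-4, had 0.672 and 1.01 CPM against 0 in all 3 NT libraries, or 41 counts against none. It was at least 9.54-fold higher against a floor of 3 counts over the NT group (adjusted p = 0.0457). Actc1, Acbd4 and Lgals4 are thus genes near absent from NT at day 11; at days 7 and 9, NT cells averaged 2.36 and 1.44 CPM of Acbd4 and 1.98 and 1.42 CPM of Lgals4. None of the 4 calls held without Nr6a1 replicate 1 (Crabp1 0.76 and Actc1 5.44; lowest adjusted p 0.18) or without NT replicate 3 (Crabp1 0.54, Actc1 4.42; lowest adjusted p 0.0648). Crabp1 and Actc1 were also not called without NT replicate 1 (0.72 and 4.26; adjusted p = 0.0628 and 0.111) or Nr6a1 replicate 3 (0.65 and 4.10; 0.144 and 0.156), nor was Lgals4 without NT replicate 1 or 2 (adjusted p = 0.0796 and 0.0732) or Nr6a1 replicate 3 (0.0619). After thinning Crabp1 and Actc1 were not called (both adjusted p = 0.057), and with only the groups compared Crabp1, Actc1 and Acbd4 were not (adjusted p = 0.429, 0.236 and 0.501), while Lgals4 was not tested.

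Genes for which Nr6a1 is known were then read. Pou5f1, its classical target, had 11.7 and 16.6 CPM in Nr6a1 cells, against 4.72, 5.19 and 8.15 CPM in NT cells. The groups did not overlap, yet the difference did not pass (log2 1.24, adjusted p = 0.5). Nanog, another pluripotency gene, had 4.16 and 9.36 CPM in Nr6a1 cells and 5.65, 3.53 and 5.13 CPM in NT cells, with overlap. Of 24 tested pluripotency genes, 0 were called by edgeR or DESeq2. At an unadjusted p under 0.05, 4 were higher, as were 5.32% of all tested genes. The list median was 0.53, but 0.92 without Nr6a1 replicate 1 and 0.01 without Nr6a1 replicate 3. At days 7 and 9 the list median was -1.20 and -1.68. Of the 12 trunk Hox genes of groups 6 to 9, 0 were called by either tool. At an unadjusted p under 0.05, 4 were higher, as were 5.32% of all tested genes. Without overlap 5 were higher (41.7%, against 13.2% of all tested genes) and 2 lower (16.7%, against 7.62%). Hoxc8 had 26.2 and 16.5 CPM in Nr6a1 cells, against 5.42, 5.57 and 1.81 CPM in NT cells (log2 2.31, adjusted p = 0.0735). Hoxa7 had 10.4 and 11.8 CPM against 3.95, 3.15 and 0 CPM (adjusted p = 0.175), and Hoxb9 124 and 155 CPM against 67.4, 88.6 and 68.8 CPM (adjusted p = 0.357). The separation was not shared by all trunk genes: Hoxb6 (log2 -0.30) and Hoxb8 (-0.13) were lower without overlap. The 8 tested posterior Hox genes of groups 10 to 13 were under 2 CPM in every library, and 0 were called by either tool. Of them 6 were at 0 in NT, and the 2 that were at 0 in Nr6a1 cells were among those 6. Of these 8 genes 4 were higher and 0 lower at an unadjusted p under 0.05, against 5.32% and 2.85% of all tested genes. Without overlap 3 were higher (37.5%, against 13.2% of all tested genes). The median was 3.13, or 1.83 with low counts bounded as for muscle. It was 1.06 without Nr6a1 replicate 1 and 0.67 without Nr6a1 replicate 3, over 10 genes tested in each of those fits. With only the groups compared 0 of these genes passed the low-count filter. Hoxa10 had 56 counts in Nr6a1 cells against 3 in NT cells, a ratio of rates of 13 (exact binomial 95% bounds 4.22 and 64.9). Lin28a, an early heterochronic gene, had 12.9 and 19.9 CPM in Nr6a1 cells and 13.01, 12.2 and 20.1 CPM in NT cells. Lin28b, another, had 22.4 and 17.9 against 20.0, 15.4 and 16.7 CPM. Both overlapped between the groups, and 0 of the 19 genes of the early heterochronic list were called. At an unadjusted p under 0.05, 1 was higher and 6 lower, against 5.32% and 2.85% of all tested genes.

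In the other lists 0 members were called by edgeR, and DESeq2 called 1 each in axon guidance, late neuronal temporal factors (Nfix) and neural crest. The 24 genes of dorsal and intermediate progenitors had a median of 1.01 (0.90 with low counts bounded as for muscle). It was 1.31 without Nr6a1 replicate 1 and 0.36 without Nr6a1 replicate 3. At an unadjusted p under 0.05, 8 were higher, as were 5.32% of all tested genes. Without overlap 5 were higher (20.8%, against 13.2% of all tested genes). Pax3, of dorsal progenitors, had 1.39 and 5.30 CPM in Nr6a1 cells, against 1.39, 0.186 and 0 CPM in NT cells. The 24 axon guidance genes had a median of -0.12, and Slit2, a midline repellent, had 179 and 285 CPM in Nr6a1 cells and 405, 380 and 460 CPM in NT cells (log2 -0.84, adjusted p = 0.0604; called lower by DESeq2). The 32 cell cycle genes had a median of 0.12, the 28 p53 targets of 0.05 and the 21 tested subunits of PRC2 and PRC1 of -0.01. The 24 stress and immediate early genes had a median of 0.14, with Hmox1, which rises with oxidative stress, at 14.95 and 14.4 CPM in Nr6a1 cells against 7.98, 13.2 and 5.63 CPM in NT cells. The medians were 0.59 for 19 mesoderm genes (0.48 with low counts bounded as for muscle) and 0.86 for 20 epithelial genes (0.29 when bounded). They were 0.63 for 11 endothelial and blood genes and 0.02 for 17 neural crest genes. Without Nr6a1 replicate 3 these medians were 0.16 for mesoderm, 0.18 for epithelium, -0.06 for endothelium and blood and -0.39 for neural crest. Without Nr6a1 replicate 1 they were 0.25, 0.78, 0.93 and 0.03. Those fits tested 22, 21, 12 and 17 genes of these lists. The part of these other cell types in the calls was not tested.

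The day 11 calls were then set against earlier days, which share no library with day 11. Nr6a1 against NT gave 23 called genes at day 9 (0.151%) and 22 at day 7 (0.145%), and 0 were called in the same direction at day 11 and at either earlier day; DESeq2 called 4 at both day 9 and day 11. The day 9 calls held 2 genes of the oligodendrocyte lineage list, both absent from the day 11 calls: Pdgfra (24.9 ± 17.9 CPM in Nr6a1 cells, n = 2, against 6.34 ± 2.69 CPM in NT cells, n = 3; mean ± SD; log2 1.95, adjusted p = 0.0173) and Omg, an oligodendrocyte glycoprotein (1.73 ± 2.06 CPM against 0 in all 3 NT libraries, adjusted p = 0.0179). The day 7 calls held 4 genes of gliogenesis, Ptprz1, Slc1a3, Nfib and Ncan. Ptprz1, a receptor phosphatase of radial glia, averaged 393 ± 82.7 CPM in Nr6a1 cells and 159 ± 3.19 CPM in NT cells at day 7 (adjusted p = 9.6e-06), and at day 11 the groups overlapped, at 2295 ± 198 CPM in Nr6a1 cells and 2218 ± 67.4 CPM in NT cells.

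Mbp, Myrf and Cnp were not called at day 7 or 9. At day 7 Mbp was still higher without overlap (75.5 and 57.4 CPM in Nr6a1 cells, 46.5, 46.3 and 52.65 CPM in NT cells). Mbp averaged 66.5 ± 12.8, 37.0 ± 3.54 and 156 ± 86.1 CPM at days 7, 9 and 11 in Nr6a1 cells (SD, n = 2 each), against 48.5 ± 3.61, 36.8 ± 9.82 and 49.4 ± 2.94 CPM in NT cells (n = 3 each). Slc4a4 averaged 18.3, 15.1 and 88.1 CPM in Nr6a1 cells at those days and 20.3, 18.5 and 36.9 CPM in NT cells. At day 9 Slc4a4 was lower without overlap (15.8 and 14.4 CPM in Nr6a1 cells, 19.7, 19.7 and 15.97 CPM in NT cells). For Mbp and Slc4a4 the difference from NT was higher at day 11 than at day 9, by 1.64 (adjusted p = 0.0308) and 1.55 (adjusted p = 0.0237). They were the only 2 genes edgeR called in that test (0.0132% of tested genes). With only the groups compared neither was called (1.61 and 1.53; adjusted p = 0.207 and 0.0614). Without Nr6a1 replicate 1 at day 11 neither passed (0.93 and 1.17; adjusted p = 0.366 and 0.149), and Mbp did not without NT replicate 3 (1.65, adjusted p = 0.0588). Sim1 took another course: it averaged 8.29, 14.8 and 21.2 CPM at days 7, 9 and 11 in Nr6a1 cells, against 4.17, 34.5 and 60.7 CPM in NT cells. At day 7 both Nr6a1 libraries were above the NT libraries, and at days 9 and 11 both were below. The difference between days 11 and 7 was called (-2.54 ± 0.426, adjusted p = 0.00354), though without Nr6a1 replicate 1 it was at -2.41 (adjusted p = 0.0569). That test called 17 genes (0.112%), 6 with a higher value at day 11 (0.0395%; Acbd4, Alpl, Apcdd1, Tns3, Crabp1 and Slc4a4) and 11 with a lower one (0.0723%).

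**Figure D3:**
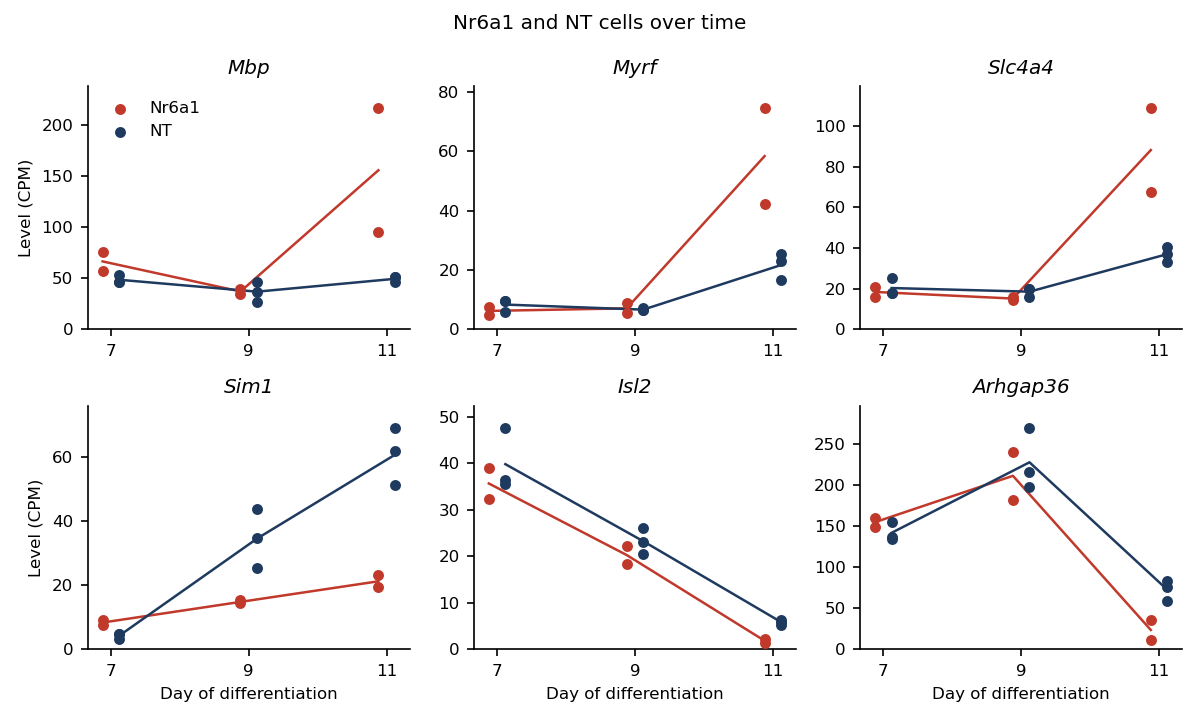
Level (CPM) of 6 called genes in each library at days 7, 9 and 11, Nr6a1 in red and NT in blue, with lines through the group means. Mbp, Myrf and Slc4a4 are higher in Nr6a1 cells at day 11, and Sim1 crosses between days 7 and 9. Without overlap, Mbp is also higher at day 7 and Slc4a4 lower at day 9.

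In NT cells alone, between days 7 and 9, 14.5% of all tested genes rose and 13.3% fell. Of the 8 genes higher in Nr6a1 cells at day 11, Cnp rose and Crabp1 fell over those days in NT. Of the 4 lower genes, Sim1 and Arhgap36 rose and Isl2 fell over those days. The rise of Arhgap36 in NT did not last, with 216, 198 and 270 CPM at day 9 and 75.7, 58.4 and 83.0 CPM at day 11. Thus Crabp1 and Isl2 both fell with time in NT, and at day 11 Crabp1 was higher and Isl2 lower in Nr6a1 cells.

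Nr6a1 cells were last compared with cells given guides against Eed, Ezh2 (both subunits of the histone methyltransferase complex PRC2) or Brd8 (a bromodomain protein of a histone acetyltransferase complex), a comparison in which no NT library enters but the Nr6a1 libraries are the same. At day 11, 2381 genes (15.7%) differed between Nr6a1 and the mean of those 3 groups, 1243 higher (8.18%) and 1138 lower (7.48%). Without Nr6a1 replicate 1 there were 593. Mbp averaged 156 ± 86.1 CPM in Nr6a1 cells (SD, n = 2), against 28.1 ± 3.78, 39.5 ± 7.70 and 25.8 ± 1.89 CPM in Eed, Ezh2 and Brd8 cells (n = 3 each; log2 2.35, adjusted p = 4.17e-13). Slc4a4 (log2 1.92), Myrf (2.14) and Cnp (1.56) were higher too, and Isl2 (-2.61), Arhgap36 (-1.31) and Slc10a4 (-1.45) were lower. Without Nr6a1 replicate 1 all but Arhgap36 (-0.72, adjusted p = 0.201) were still called, with Mbp at 1.63 (adjusted p = 9.24e-08) and Isl2 at -2.30. For these 7 genes the Nr6a1 mean lay outside those of all 4 other groups, on the same side. Isl2 averaged 1.79 ± 0.637 CPM in Nr6a1 cells, against 12.4 ± 1.29, 10.5 ± 1.61 and 10.3 ± 3.43 CPM in Eed, Ezh2 and Brd8 cells. Sim1 was different, since it was low in every guide group: 21.2 ± 2.75 CPM in Nr6a1 cells, against 25.7 ± 5.14, 29.1 ± 3.30 and 16.3 ± 3.27 CPM in Eed, Ezh2 and Brd8 cells (log2 -0.11, adjusted p = 0.837). Crabp1 and Actc1 were lower in Nr6a1 cells than with the other guides (log2 -0.68 and -1.995, adjusted p = 0.00016 and 0.0315), and Acbd4 and Lgals4 were not called, so these 4 genes and Sim1 were not shifted the same way against both comparators. The call of Actc1 was lost without Nr6a1 replicate 1 (-1.48, adjusted p = 0.517).

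**Figure D4:**
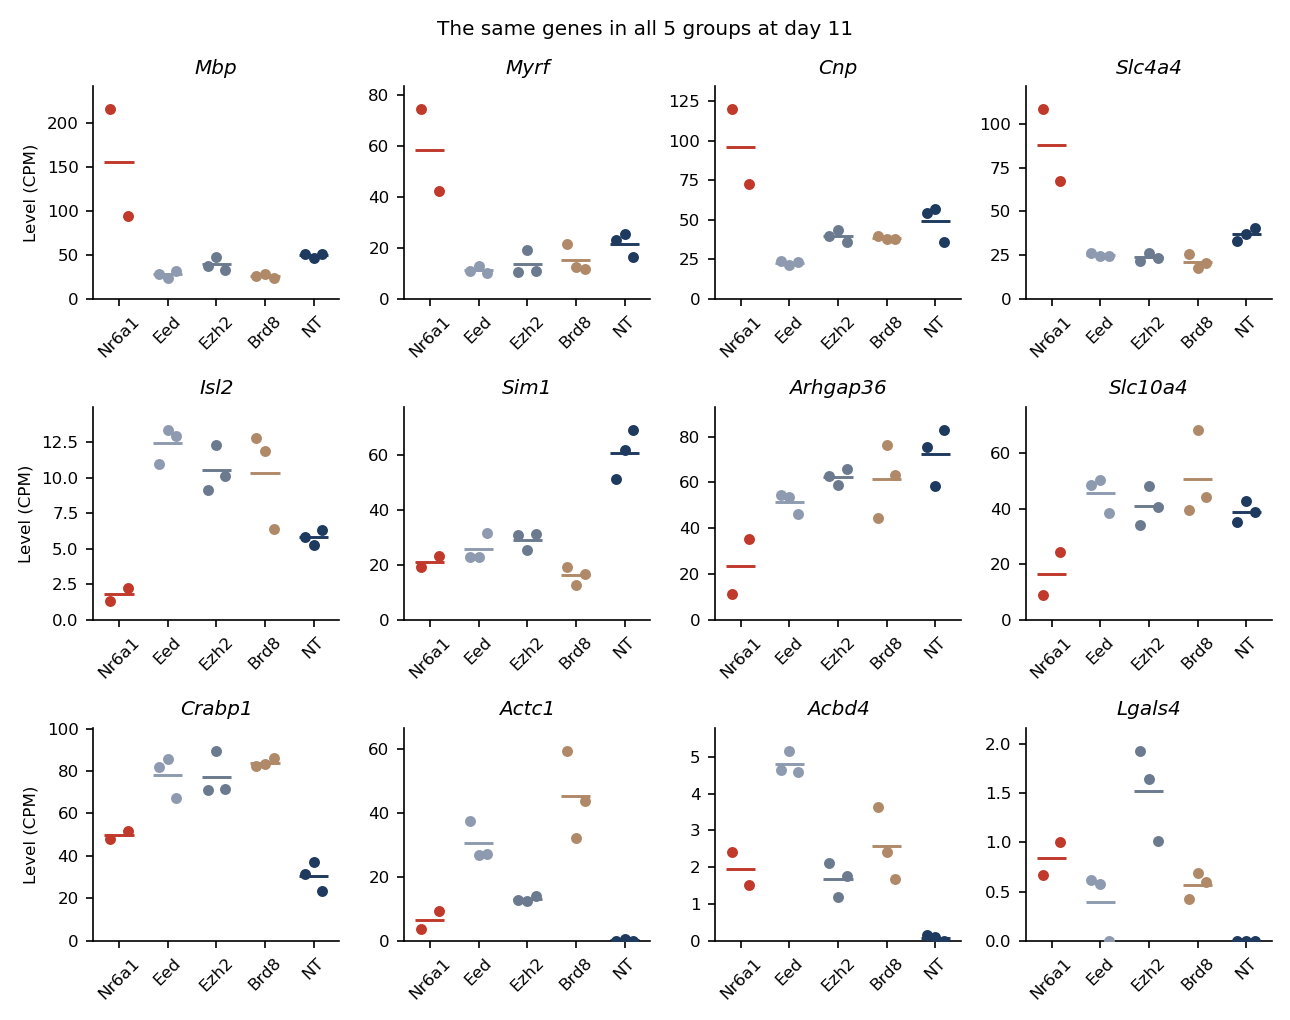
Level (CPM) of the 12 called genes in each library at day 11 by group, with lines at the group means. Mbp, Myrf, Cnp and Slc4a4 are highest in Nr6a1 cells, Isl2, Arhgap36 and Slc10a4 are lowest there, and Sim1, Crabp1, Actc1 and Acbd4 are set apart in NT.

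Against the other guides, 14 of 18 members of the oligodendrocyte list were called higher and 0 lower (median 2.06, against 0.00 over all tested genes, of which 8.18% were called higher). Enpp6 had 16.6 and 5.96 CPM in Nr6a1 cells and averaged 0, 0.511 and 0.0744 CPM in Eed, Ezh2 and Brd8 cells (adjusted p = 6.67e-06). Fa2h, an enzyme of myelin lipid synthesis, had 7.75 and 2.59 CPM in Nr6a1 cells and averaged 0.136, 0.187 and 0.0693 CPM there (adjusted p = 0.000402). Olig1, a bHLH factor of the oligodendrocyte lineage, had 220 and 136 CPM in Nr6a1 cells and averaged 11.9, 52.7 and 22.1 CPM in Eed, Ezh2 and Brd8 cells (log2 2.87), while in NT cells it averaged 126 ± 28.4 CPM. Gliogenesis had 15 of 25 members called higher and 0 lower (median 1.01), with Nfix (2.21) and Bcan (3.90) among them. Against NT 0 of the 25 were called by edgeR (median 0.29). Against NT 0 of 24 pluripotency genes were called (median 0.53), and against the other guides Pou5f1 was among 8 called higher (median 1.65). It averaged 14.2 CPM in Nr6a1 cells, against 4.93 ± 0.927, 3.03 ± 1.03 and 1.83 ± 1.32 CPM in Eed, Ezh2 and Brd8 cells (log2 2.24, adjusted p = 8.22e-05). Without Nr6a1 replicate 1, 10 of the oligodendrocyte and 11 of the gliogenesis genes were called higher, and Fa2h was not (adjusted p = 0.0934); pluripotency had 3 genes without replicate 1 and 2 without replicate 3.

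Over all tested genes 7.48% were called lower and 8.18% higher than with the other guides. Of 32 cell cycle genes 30 were called lower and 0 higher (median -0.67), while against NT 0 were called and the median was 0.12. Kif11, a mitotic kinesin, had 44.6 and 53.3 CPM in Nr6a1 cells, against means of 95.6 ± 9.78, 80.1 ± 7.81 and 85.3 ± 7.24 CPM in Eed, Ezh2 and Brd8 cells (log2 -0.82, adjusted p = 3.46e-07), and 44.9 ± 0.684 CPM in NT cells. Of 32 neurogenesis genes 13 were called lower and 2 higher (median -0.21), while against NT 0 were called and the median was -0.09. Neurod4, a proneural factor, had 23.5 and 39.4 CPM in Nr6a1 cells, against means of 142 ± 26.6, 94.4 ± 7.18 and 132 ± 18.2 CPM (log2 -1.94). Of 18 motor neuron genes 8 were called lower and 0 higher, and of 19 early heterochronic genes 11 were lower and 1 higher. Against NT, 1 motor neuron gene was called lower (median -0.21) and 0 early heterochronic genes were called by edgeR (median -0.13). Hmga2, a chromatin protein of early progenitors, had 38.9 and 50.8 CPM in Nr6a1 cells, against means of 125 ± 4.51, 84.8 ± 6.21 and 150 ± 29.2 CPM (log2 -1.38), and 52.9 ± 16.6 CPM in NT cells. Hoxb9 was lower than with the other guides too (124 and 155 CPM in Nr6a1 cells, against means of 305 ± 75.9, 335 ± 27.6 and 549 ± 42.2 CPM; log2 -1.46, adjusted p = 0.000408). Hoxb9 therefore lay between the NT level and that of the other guides, though without Nr6a1 replicate 1 it was not called (-1.30, adjusted p = 0.059). In that fit 12 cell cycle, 8 neurogenesis, 3 motor neuron and 6 early heterochronic genes were called lower. Nr6a1 transcript was lower in Nr6a1 cells than with the other guides (log2 -0.43, adjusted p = 0.00852), at a mean of 29.1 ± 1.06 CPM against 46.8 ± 7.89, 34.8 ± 3.49 and 37.1 ± 2.76 CPM. With either Nr6a1 library left out the transcript was not called (-0.46 and -0.39, adjusted p = 0.11 and 0.117).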

How the data were processed

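Directional, ribodepleted libraries of total RNA were made, per the labels' protocols, although the labels name the library source genomic. The authors deposited estimated counts per gene symbol and library; these were rounded, since 2.95% of values (29525, from 2426 genes) had a fraction. Per the submitters' processing notes, the build is mm10 and DESeq2 was used; aligner, quantifier and annotation: not given in the sources used here. Depth was 8581282 to 38240227 estimated counts per library.

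Groups are the genotype and day in each title. In R 4.3.3, edgeR 4.0.16 was used with filterByExpr by group (15204 genes kept), TMM scaling and 1 quasi-likelihood fit of 15 group means over 41 libraries (common coefficient of biological variation 0.182), so the spread is pooled over groups. P-values are two-sided, adjusted by Benjamini and Hochberg over all tested genes, with a threshold of 0.05; a called gene passed it. SE is that of the log2 fold change. Floors use 3 counts.

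Named genes were the target, called genes with no overlap between groups and at least 2 CPM in the higher group, the 4 highest and lowest of each other comparison, neighbours within 500 kb, up to 4 members of each of 32 lists by smallest adjusted p, Pou5f1, Nanog, Lin28a, Lin28b and the Hox genes; Lgals4 and other list members were added after their values were seen. The genes and lists were chosen with earlier results of these data known. Of the 169 symbols looked up, 168 matched GENCODE M21. Alternatives were DESeq2 size factors, the Wald test of DESeq2 1.42.0, the table with its low-count genes kept, only the groups compared, the replicate number as a block, no Rn45s, each day 11 library left out, and Nr6a1 libraries thinned to the mean NT depth, the last chosen after seeing the data. The values of 1 list member are not reported here. The pipeline was tested on simulated data.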

Additional observations from a re-analysis of the deposited data

Results flagged for a closer look

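Differences from NT that changed between days were flagged by a test of the change itself, in the same edgeR fit. Between days 11 and 7 the test called 17 genes and between days 11 and 9 it called 2. Among the changes from day 7 (log2 difference at day 11 minus that at day 7), Acbd4 was at 5.03, a value that rests on 3 NT counts at day 11, Alpl at 1.7, Apcdd1 at 1.64 and Tns3 at 1.53. For Alpl, a phosphatase, the level at day 11 was 19.4 and 18.2 CPM in Nr6a1 cells and 7.899, 11.8 and 8.35 CPM in NT cells; at day 7 it was 17.3 and 19.1 CPM in Nr6a1 cells and 32.5, 29.7 and 26.1 CPM in NT cells. The groups did not overlap on either day, with Nr6a1 cells lower at day 7 and higher at day 11. Apcdd1, an inhibitor of Wnt signalling, had 134 and 111 CPM in Nr6a1 cells and 56.7, 71.8 and 55.5 CPM in NT cells at day 11, and Tns3, a tensin, 162 and 104 CPM against 69.9, 81.5 and 69.0 CPM. Without Nr6a1 replicate 1 none of these 4 passed (lowest adjusted p 0.136), nor did they without NT replicate 3 (lowest adjusted p 0.0578); Alpl and Apcdd1 did not without NT replicate 1 (both adjusted p = 0.0656).

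On the other side stood Sim1 at -2.54, Bcl11a and Gareml at -2.35 each and Bcl11b at -1.99. Bcl11a, a zinc finger factor of neurons, had 63.0 and 31.0 CPM in Nr6a1 cells against 7.05, 12.2 and 8.01 CPM in NT cells at day 7 (log2 2.39, adjusted p = 2.23e-09), and 109 and 102 CPM against 98.7, 98.5 and 113 CPM at day 11 (log2 0.03). Bcl11b had 36.0 and 14.2 CPM against 7.63, 8.64 and 3.80 CPM at day 7, and 64.2 and 64.3 CPM against 70.9, 64.9 and 76.1 CPM at day 11. In both genes the groups were apart at day 7; at day 11 Bcl11a overlapped and Bcl11b was lower in Nr6a1 cells by a small margin. Bcl11a and Gareml were called in all 12 alternatives; Bcl11b was not without Nr6a1 replicate 1 (-1.99, adjusted p = 0.14), Nr6a1 replicate 3 (-1.99, 0.0526) or NT replicate 3 (-1.94, 0.0578). Against day 9, Mbp changed by 1.64 and Slc4a4 by 1.55.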

How the results depend on the processing

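Precision is limited by 2 Nr6a1 libraries, by the 9541162 to 12392709 counts of the NT libraries, and by NT replicate 3, which stood apart. The 12 day 11 calls became 69 by the DESeq2 Wald test, 228 without the low-count filter and 6 after thinning, and 0 to 47 with 1 library left out (47 without Nr6a1 replicate 3, 25 without NT replicate 1, 30 without NT replicate 2). With only the groups compared there were 14, of which 3 were among the 12. The replicate number as a block gave 23, with all 12 among them. Whether same-numbered libraries form pairs is not stated. Correlations of their deviations (0.0393 and -0.00758) cannot decide it, since the 2 Nr6a1 libraries deviate from their own mean by mirrored amounts. For the change between days 11 and 7 (17 genes) the counts were 53 by DESeq2, 262 without the filter, 29 with only the groups compared and 2 to 34 with 1 library left out. For days 11 and 9 (2 genes) they were 38, 166 and 7 (neither gene among the 7), with 5 after thinning and 0 to 21 with 1 library left out. Against the other guides (2381) they were 593 to 2519 with 1 library left out. Genes called at both day 9 and day 11 (0) numbered 4 by DESeq2, 30 without the filter, 1 in a fit of only those groups, 2 under the replicate block and 0 to 1 with 1 library left out. The day 11 calls among genes changed in NT (5) numbered 8 with DESeq2 size factors, 34 by DESeq2, 138 without the filter, 13 with the block, 2 after thinning and 0 to 24 with 1 library left out. No named gene's called fold change reversed under these alternatives in the comparisons where it was recomputed; the causes were not tested.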

Other observations

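Npcd, Nptxr, Ass1, Neurog3 and Ttn were not called by edgeR in the fit over all groups and were chosen after their values were seen. Npcd had 40.5 and 31.4 CPM in Nr6a1 cells and 0 in all 3 NT libraries (edgeR adjusted p = 0.167, 8.85e-05 with only the groups compared, and 3.17e-11 by DESeq2). Nptxr moved the other way with only the groups compared (log2 -1.83, edgeR adjusted p = 0.00308). Whether counts were divided between the Npcd and Nptxr symbols was not tested. Ass1, an enzyme of arginine synthesis, had 0 in both Nr6a1 libraries and 5.65, 5.94 and 0 CPM in NT cells (adjusted p = 0.526). The proneural gene Neurog3 had 1.66 and 2.86 CPM in Nr6a1 cells, against 9.91, 12.1 and 12.9 CPM in NT cells, without overlap (log2 -2.35, edgeR adjusted p = 0.128; DESeq2 adjusted p = 0.0131). Ttn, the muscle protein titin, had 44.2 and 31.4 CPM in Nr6a1 cells and 1.94, 15.5 and 2.52 CPM in NT cells (edgeR adjusted p = 0.135; 0.0222 without NT replicate 2).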
